A study of Mus musculus with 24 samples.

Results

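The genes compared here are 10 regulators of mitochondrial biogenesis, chosen by name from the 56941 genes of the deposited tables. They are the coactivators Ppargc1a and Ppargc1b, the nuclear receptors Esrra, Esrrg, and Ppard, the factors Nrf1 and Tfam, and the orphan receptors Nr4a1, Nr4a2, and Nr4a3. All 10 passed the filter on low counts, which kept 13318 genes for testing. Their RNA was measured by bulk RNA sequencing in flat sheets of muscle grown from C2C12, a mouse myoblast line that fuses into contractile fibers. Every tissue, control included, expressed ChR2::tdTomato, a channelrhodopsin fused to a red fluorescent protein that makes the cells contract when blue light reaches them. Tissues were differentiated for about 2 weeks in horse serum medium with IGF-1 and were exercised with light pulses of 1, 4, or 10 Hz (30 min daily) or kept without light as control, with 6 libraries per condition and 24 in all. Because the control tissues received no light, contraction and light itself cannot be told apart, and how long before lysis the last stimulation ended is not given in the sources used here.

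Ppargc1a encodes PGC-1alpha, a coactivator with no DNA-binding domain of its own that is induced in muscle by exercise and cold. It docks on receptors such as ERRalpha (Esrra), ERRgamma (Esrrg), and PPARdelta (Ppard), and together with nuclear respiratory factor 1 (Nrf1) it raises nuclear genes of oxidative metabolism, among them Tfam, which packages mitochondrial DNA and starts its transcription. Nr4a1, Nr4a2, and Nr4a3 (NUR77, NURR1, and NOR-1) are early response genes that calcium and cAMP signals can induce in muscle through the factor CREB, and in muscle they are known for control of glucose and fatty acid use. Calcium signals also reach Ppargc1a through CREB and the MEF2 factors.

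The promoters of Ppargc1a and of the Nr4a genes are shown because calcium signaling reaches all 4 genes. The levels of the Nr4a genes took different courses, given below, while Ppargc1a and Nr4a3 were both called higher at 4 Hz. Any link between promoter sequence and level was not tested. Each window runs from 250 bases before to 50 bases after the start of the canonical GENCODE transcript and is written 5′ to 3′ on the strand of the gene, as read from GRCm39. Capitals mark the cAMP response element (CRE, TGACGTCA), its core TGACG, and the NRF1 element GCGCNTGCG, all searched on both strands and shown as the reverse complement where the match lies on the other strand.
Ppargc1a, chr5:51711215-51711514, minus strand: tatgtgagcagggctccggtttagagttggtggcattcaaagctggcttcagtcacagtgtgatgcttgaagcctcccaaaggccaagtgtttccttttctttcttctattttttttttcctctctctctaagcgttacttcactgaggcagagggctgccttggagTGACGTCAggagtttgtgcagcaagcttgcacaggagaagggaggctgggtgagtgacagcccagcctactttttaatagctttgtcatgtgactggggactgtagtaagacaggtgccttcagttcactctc
Nr4a1, chr15:101164410-101164709, plus strand: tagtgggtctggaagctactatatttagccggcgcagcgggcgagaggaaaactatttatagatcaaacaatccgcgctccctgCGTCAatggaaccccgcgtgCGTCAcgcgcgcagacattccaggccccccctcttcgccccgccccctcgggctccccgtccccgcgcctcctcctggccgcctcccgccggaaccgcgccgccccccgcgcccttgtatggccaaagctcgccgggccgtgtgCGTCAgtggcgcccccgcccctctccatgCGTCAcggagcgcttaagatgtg
Nr4a2, chr2:57006197-57006496, minus strand: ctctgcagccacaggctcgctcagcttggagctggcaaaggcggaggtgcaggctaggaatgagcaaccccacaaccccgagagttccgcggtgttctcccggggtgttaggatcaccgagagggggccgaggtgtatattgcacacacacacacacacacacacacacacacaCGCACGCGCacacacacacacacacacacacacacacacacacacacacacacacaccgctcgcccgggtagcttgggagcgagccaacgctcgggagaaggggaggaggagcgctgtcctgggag
Nr4a3, chr4:48044903-48045202, plus strand: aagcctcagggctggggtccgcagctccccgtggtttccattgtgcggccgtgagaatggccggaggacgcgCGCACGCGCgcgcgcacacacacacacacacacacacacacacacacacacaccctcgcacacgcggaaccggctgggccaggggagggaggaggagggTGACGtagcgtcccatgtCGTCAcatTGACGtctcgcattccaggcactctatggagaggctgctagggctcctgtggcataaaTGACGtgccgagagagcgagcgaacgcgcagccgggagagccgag

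Ppargc1a held 1 full CRE, at position -83 from the transcript start, and each full CRE also contains this core on both strands. The window of Nr4a1 held 4 cores, at -166, -146, -2, and 28. That of Nr4a3 also held 4, at -79, -61, -53, and 6, and an NRF1 element at -178. In the Nr4a2 window neither the CRE nor its core was found, and the only match was to the NRF1 element at -76, inside a repeat of CA and CG. Among 21757 protein-coding promoters of the same length, 2.45% held the CRE, 22.6% the core, and 8.2% the NRF1 element. Of the other members, Esrra held an NRF1 element at -86 and Tfam a core at -41. The ERR element TCAAGGTCA and the NR4A element AAAGGTCA, which overlap in AAGGTCA, were in 0.473% and 1.36% of promoters and in none of the 10 windows. These matches describe letters in a short window around 1 start site. Ppargc1a is known to have further first exons upstream that the gene tables do not separate. The windows of Ppargc1a, Nr4a1, and Nr4a2 lie inside the annotated genes, downstream of the outermost 5′ end, while that of Nr4a3 lies at it. The windows therefore do not compare like start sites, and sequence near other starts of Nr4a2 was not searched.

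Libraries held 4.09 to 15.2 M counts. The 8 muscle fiber markers summed to between 8089 and 10340 TPM (transcript counts scaled for length and library size) in control, 12430 and 16160 TPM at 1 Hz, 12350 and 17990 TPM at 4 Hz, and 8421 and 13520 TPM at 10 Hz. The sum was therefore higher at 1 and 4 Hz than in any control library. Acta1 and Mylpf weighed most in it, with control means of 3292 and 3289 TPM. Of these 8 markers, 6 were called higher at 1 Hz, 6 at 4 Hz, and 3 at 10 Hz, and Ckm and Ttn were called at none. The 6 markers of undifferentiated or cycling myoblasts summed to 39.8, 53.7, and 62.2 TPM in control (lowest, median, and highest library). The sums were 37.7, 41.7, and 49.1 TPM at 1 Hz, 26.6, 38.3, and 42.7 TPM at 4 Hz, and 43.1, 47.5, and 51.8 TPM at 10 Hz. The median at 4 Hz lay below every control library. Cdk1 and Myf5 weighed most in the sum, with control means of 28.6 and 15.8 TPM. Pax7, Mki67, and Top2a had control means of 0.566, 0.148, and 3.19 TPM. At 4 Hz 3 of the 6 markers were called higher (Pax7, Mki67, and Top2a) and 2 lower (Cdk1 and Myf5). At 1 Hz 1 was called higher and 1 lower, and at 10 Hz 0. The 4 fibroblast markers summed to 27.2 to 65.2 TPM over all libraries. The 5 adipocyte and the 3 endothelial markers did not pass the filter, and of the 4 macrophage markers Ptprc and Adgre1 were at or near 0. Cd68, a lysosomal protein also made outside macrophages, was at mean levels of 104.8 to 135.4 TPM and carried nearly all of the macrophage sum, which was 112 to 169.1 TPM in control, 115.9 to 158.5 at 1 Hz, 86.3 to 125 at 4 Hz, and 96.4 to 128.8 at 10 Hz. Csf1r, the receptor of a macrophage growth factor, was called lower at 4 Hz (-1.33 ± 0.45, SE, edgeR adjusted p = 0.0195). Its level was near the floor, with means of 0.574 TPM in control and 0.195 TPM at 4 Hz. The part of these other cell markers in the results was not tested. A second feature moved with the conditions: the summed level of 6 small RNAs that carry no poly(A) tail (Rn7sk, Rn7s1, Rn7s2, Rmrp, Rpph1, and Snord3b1) was 105.9 to 179.3 CPM (counts scaled for library size alone) in control, 13.7 to 69.0 CPM at 1 Hz, 18.1 to 49.4 CPM at 4 Hz, and 39.8 to 260.7 CPM at 10 Hz. No 1 or 4 Hz library reached the control range, so that small RNA content and stimulation cannot be told apart for these conditions. RNA was selected by its poly(A) tail except in low-input samples, which were ribodepleted and which the labels do not name. Library preparation therefore cannot be told apart from stimulation in any comparison below, and its part in the differences was not tested. In bulk tissue, fewer cells of a type and less RNA per cell cannot be told apart either.

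Levels of the 10 genes spanned a wide range within a tissue. In control, per transcript length, Tfam was the highest with 83.2 ± 9.91 TPM (SD, n = 6), followed by Esrra with 49.3 ± 10.9 TPM and Nr4a1 with 40.8 ± 6.00 TPM, and the ranges of neighbors in this order overlapped. Ppard with 21.6 ± 3.92 TPM lay below every Nr4a1 value and overlapped with Nrf1 at 17.4 ± 3.08 TPM. The remaining 5 genes were low: Nr4a2 at 7.36 ± 3.82, Nr4a3 at 3.09 ± 0.871, Ppargc1b at 2.31 ± 0.757, Ppargc1a at 1.23 ± 0.339, and Esrrg at 0.595 ± 0.139 TPM. Of these, Nr4a2 overlapped with neither neighbor, while Nr4a3, Ppargc1b, Ppargc1a, and Esrrg each overlapped with the next. Under stimulation the order within the low genes changed. Nr4a3 exceeded Nr4a2 in TPM in 0 of 6 control libraries, 4 of 6 at 1 Hz, 6 of 6 at 4 Hz, and 0 of 6 at 10 Hz, and Ppargc1a exceeded Ppargc1b in 0, 5, 2, and 0 of 6 libraries.

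**Figure D1:**
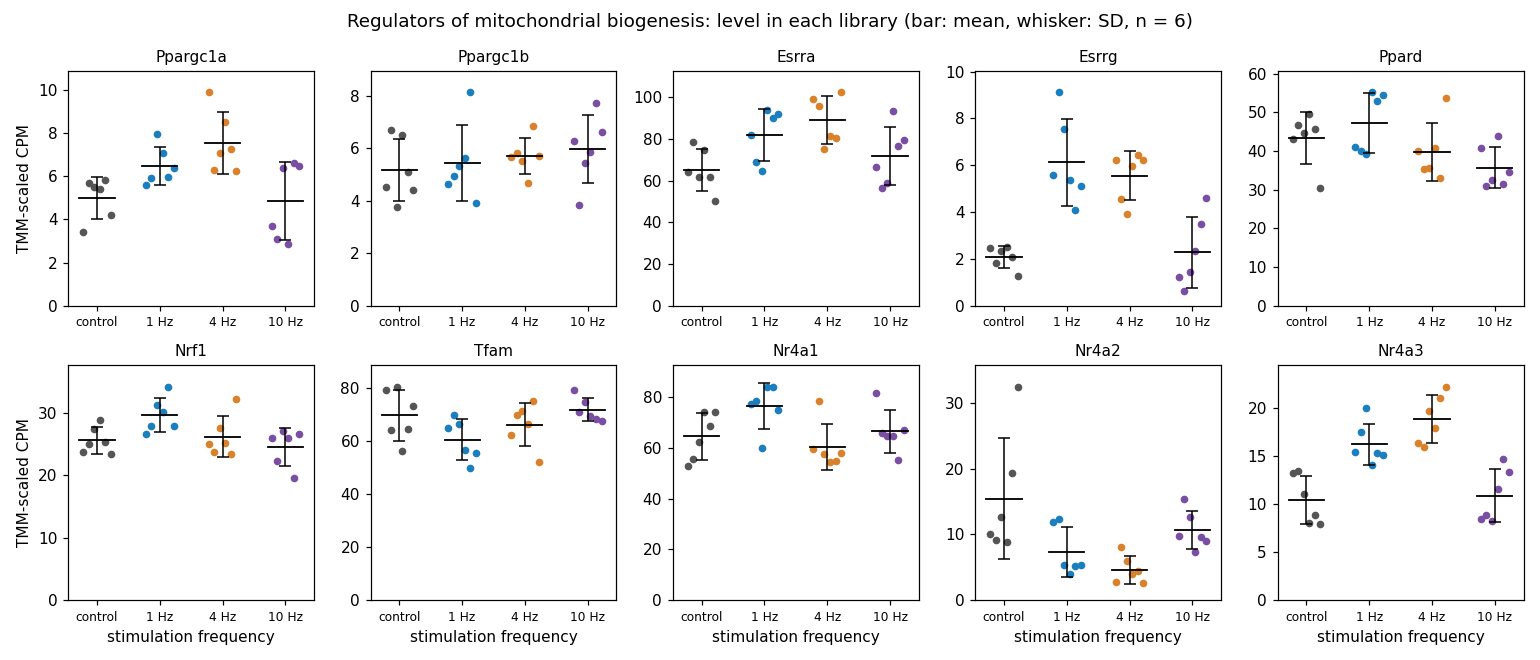
Level of each regulator in each library, in CPM scaled by the trimmed mean of M-values (TMM), by stimulation frequency; 1 point is 1 library, the bar is the mean, and the whisker is the SD (n = 6). Esrrg and Nr4a3 at 1 and 4 Hz lie above all control libraries, Nr4a2 at 4 Hz lies below all of them, and the 10 Hz libraries overlap with control for all 10 genes.

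A gene was called at a Benjamini-Hochberg adjusted p below 0.05 in edgeR's quasi-likelihood test over all 13318 genes, and fold changes are differences of log2 CPM. At 1 Hz, 4 of the 10 regulators were called against control, 3 higher (Esrra, Esrrg, and Nr4a3) and 1 lower (Nr4a2), where 18.1% of all tested genes were called higher and 17.3% lower. At 4 Hz, 5 were called, 4 higher (Ppargc1a, Esrra, Esrrg, and Nr4a3) and 1 lower (Nr4a2), against 19.2% and 20.2% of all genes. These shares are not far from the background, so the counts alone do not set the regulators apart, and what follows rests on the single genes. At 10 Hz, 0 of 10 were called by edgeR, DESeq2, or limma, against a background of 2.67% higher and 2.22% lower, with 1 member at an unadjusted p below 0.05 by edgeR (Ppard), 1 by DESeq2, and 0 by limma on log2(TPM + 1). The 3 comparisons share the control libraries. The median log2 fold change of the 10 regulators was 0.22 at 1 Hz, 0.08 at 4 Hz, and 0.04 at 10 Hz, with -0.01 for all genes at each frequency. With total count scaling, the median over all genes was -0.08 (1 Hz) and -0.11 (4 Hz), and the share of calls that were higher went from 51.1% to 36.5% and from 48.7% to 33%. On the log2(TPM + 1) scale, the median at 4 Hz was -0.16 and 23.3% of the calls were higher.

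**Figure D2:**
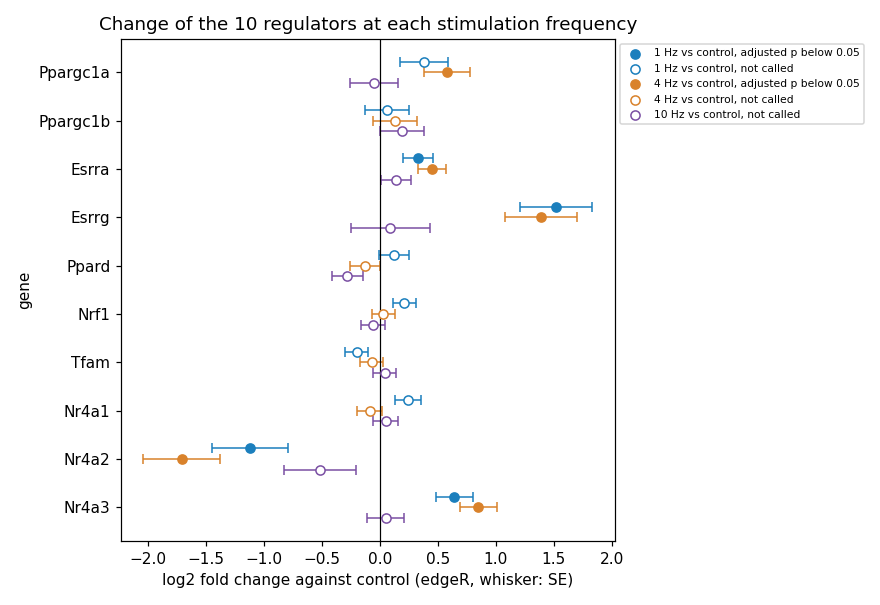
Log2 fold change against control of the 10 regulators at 1, 4, and 10 Hz (edgeR, whisker is the SE, 6 libraries per condition); filled points have an adjusted p below 0.05. The largest changes are those of Esrrg (1.52 at 1 Hz) and Nr4a2 (-1.71 at 4 Hz), and no 10 Hz point is filled.

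The coactivators were compared first. Ppargc1a (ENSMUSG00000029167, chr5:51611592-51725068, 13 exons) was at 3.41, 5.45, and 5.81 CPM in control (lowest, median, and highest library), 5.59, 6.17, and 7.97 CPM at 1 Hz, 6.22, 7.16, and 9.89 CPM at 4 Hz, and 2.87, 5.04, and 6.63 CPM at 10 Hz. All 6 libraries at 4 Hz and 5 of 6 at 1 Hz were above the highest control library, whereas the 10 Hz libraries fell on both sides of the control range. Against control, the log2 fold change was 0.58 ± 0.20 at 4 Hz (SE, edgeR adjusted p = 0.0239) and 0.38 ± 0.21 at 1 Hz (edgeR adjusted p = 0.149). Between 10 and 4 Hz it was -0.63 ± 0.20 (edgeR adjusted p = 0.021), while 10 Hz and control differed by -0.05 with a 95% interval from -0.48 to 0.38. The counts behind these values were small, 18 to 117 per library. The call at 4 Hz was lost without control replicate 1 (0.50, edgeR adjusted p = 0.0563), 4 Hz replicate 1 (0.50, 0.0624), or 4 Hz replicate 4 (0.54, 0.0508), and the call between 10 and 4 Hz without 4 Hz replicate 1, 10 Hz replicate 1, or 10 Hz replicate 2 (edgeR adjusted p = 0.0547, 0.0579, and 0.058). The call at 4 Hz was also lost with total count scaling (0.48, edgeR adjusted p = 0.0529) and by limma on log2(TPM + 1) without a filter (0.56, limma adjusted p = 0.059).

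In TPM the order of the stimulated conditions differed for this gene. Ppargc1a was at 1.23 ± 0.339 TPM in control, 2.72 ± 0.755 at 1 Hz, 2.39 ± 1.14 at 4 Hz, and 1.33 ± 0.412 at 10 Hz (SD, n = 6 each). On the log2(TPM + 1) scale it was called at 1 Hz (0.73, limma adjusted p = 0.00742), where the count test made no call, and it was called between 10 and 1 Hz (-0.67, limma adjusted p = 0.0128) but not between 10 and 4 Hz (-0.50, limma adjusted p = 0.0797). TPM divides each count by the effective length that salmon assigns to the gene in that library. The log2 of TPM per CPM was -1.02 to -0.06 in the 1 Hz libraries and -1.49 to -1.03 in control, so that all 6 libraries at 1 Hz were above every control library. The difference of 0.75 ± 0.22 (SE) was not called (limma adjusted p = 0.158), in a comparison where 0.251% of 13172 genes were called. At 4 and 10 Hz the difference was 0.42 and 0.28 (limma adjusted p = 0.483 and 0.892), with 0.501% and 0% of genes called. This measure was chosen after the data were seen, and whether the transcripts of Ppargc1a differ in length between conditions was not tested.

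Ppargc1b, which encodes the related coactivator PGC-1beta (ENSMUSG00000033871, chr18:61431195-61533735, 12 exons), was at means of 5.17, 5.43, 5.71, and 5.96 CPM in control and at 1, 4, and 10 Hz. The 4 ranges overlapped, and no comparison was called. Its fold changes against control ran from 0.06 ± 0.19 at 1 Hz to 0.19 ± 0.19 at 10 Hz (SE), with the upper end of the 95% interval at 0.58.

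Of the receptors that PGC-1 binds, both estrogen-related receptors were higher at 1 and 4 Hz. Esrrg (ENSMUSG00000026610, chr1:187340988-187947082, 7 exons), which encodes ERRgamma and is typical of oxidative muscle, was at 1.26, 2.21, and 2.51 CPM in control, 4.07, 5.48, and 9.13 CPM at 1 Hz, 3.93, 6.09, and 6.43 CPM at 4 Hz, and 0.615, 1.89, and 4.60 CPM at 10 Hz (lowest, median, and highest). Every library at 1 and 4 Hz was above every control library, and the 10 Hz libraries spread from below the control range into the 1 Hz range. Esrrg rose 2.87-fold at 1 Hz (log2 fold change 1.52 ± 0.31, SE, edgeR adjusted p = 0.00053) and 2.63-fold at 4 Hz (1.39 ± 0.31, edgeR adjusted p = 0.000884). At 10 Hz it differed from control by 0.09 ± 0.34 (edgeR adjusted p = 0.921) and was lower than at 1 Hz (-1.44 ± 0.30, edgeR adjusted p = 0.000543) and 4 Hz (-1.31 ± 0.30, edgeR adjusted p = 0.00275). These 4 calls held without each library in turn, although the gene had only 4 to 111 counts per library. With 66.3%, its coefficient of variation at 10 Hz was the largest of all members and conditions.

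Esrra, which encodes ERRalpha (ENSMUSG00000024955, chr19:6888338-6899336, 7 exons), was at 50.2, 63.0, and 78.3 CPM in control, 64.6, 86.0, and 93.9 CPM at 1 Hz, 75.3, 88.6, and 102 CPM at 4 Hz, and 56.6, 71.5, and 93.3 CPM at 10 Hz. The groups overlapped, with 4 of 6 libraries at 1 Hz and 5 of 6 at 4 Hz above all controls. The log2 fold change was 0.45 ± 0.12 at 4 Hz (SE, edgeR adjusted p = 0.00571), which held without each library in turn, and 0.33 ± 0.13 at 1 Hz (edgeR adjusted p = 0.0432), which held in 4 of 12 such fits. Without control replicate 6 the difference at 1 Hz was 0.26 (edgeR adjusted p = 0.106), and with total count scaling it was 0.25 (0.135). On the log2(TPM + 1) scale Esrra was not called at 1 or 4 Hz (0.24 and 0.26, limma adjusted p = 0.205 and 0.141).

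Ppard, the receptor for fatty acids that drives fatty acid oxidation in muscle (ENSMUSG00000002250, chr17:28451674-28520448, 8 exons), was at 30.3, 45.3, and 49.5 CPM in control, 39.2, 47.0, and 55.2 CPM at 1 Hz, 33.0, 37.8, and 53.6 CPM at 4 Hz, and 30.9, 33.6, and 44.0 CPM at 10 Hz. No frequency was called against control. It was lower at 10 than at 1 Hz (log2 fold change -0.40 ± 0.13, SE, edgeR adjusted p = 0.0165), with 4 of 6 libraries below all those at 1 Hz. On the log2(TPM + 1) scale this difference was not called (-0.38, limma adjusted p = 0.0724).

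The transcription factors of mitochondrial biogenesis moved little. Nrf1 (ENSMUSG00000058440, chr6:30047892-30153462, 12 exons), which activates nuclear genes of the respiratory chain, had means of 25.6, 29.6, 26.2, and 24.6 CPM in control and at 1, 4, and 10 Hz. Tfam (ENSMUSG00000003923, chr10:71061287-71074110, 7 exons) had means of 69.8, 60.6, 66.3, and 71.8 CPM. Neither was called against control at any frequency by edgeR with TMM scaling, and their ranges overlapped in all comparisons. The differences at 1 Hz had opposite signs, 0.21 ± 0.10 for Nrf1 (SE, edgeR adjusted p = 0.0923) and -0.20 ± 0.10 for Tfam (edgeR adjusted p = 0.105). Between 10 and 1 Hz both were called, Nrf1 lower (-0.27 ± 0.10, edgeR adjusted p = 0.0292) and Tfam higher (0.25 ± 0.10, edgeR adjusted p = 0.0446). These calls held in 8 and 5 of 12 fits that left out 1 library. With total count scaling Nrf1 was not called (-0.22, edgeR adjusted p = 0.0669). Tfam was called lower than control at 1 Hz with total count scaling (-0.28, edgeR adjusted p = 0.029) and on the log2(TPM + 1) scale (-0.46).

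The 3 Nr4a receptors, which bind the same DNA element, each took a different course. Nr4a1 (ENSMUSG00000023034, chr15:101151980-101172681, 7 exons) was at 52.8, 65.3, and 74.2 CPM in control, 59.7, 77.7, and 84.0 CPM at 1 Hz, 54.4, 57.8, and 78.3 CPM at 4 Hz, and 55.2, 65.4, and 81.5 CPM at 10 Hz. At 1 Hz, 5 of 6 libraries were above every control library, but the difference was not called (0.24 ± 0.11, SE, edgeR adjusted p = 0.0848). At 4 Hz the count test made no call against control (-0.09, 95% interval -0.32 to 0.13). On the log2(TPM + 1) scale Nr4a1 was called lower (-0.30, limma adjusted p = 0.0422), where the median over all genes was -0.16. Nr4a1 was lower at 4 than at 1 Hz (-0.33 ± 0.11, edgeR adjusted p = 0.0404), which held in 2 of 12 fits that left out 1 library. It was the only member called between these frequencies, where 5.71% of all genes were called higher and 6.56% lower at 4 Hz.

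Nr4a2 (ENSMUSG00000026826, chr2:56996842-57014331, 8 exons) was at 8.90, 11.3, and 32.4 CPM in control, 3.95, 5.36, and 12.3 CPM at 1 Hz, 2.57, 4.22, and 8.07 CPM at 4 Hz, and 7.37, 9.67, and 15.4 CPM at 10 Hz. All 6 libraries at 4 Hz and 4 of 6 at 1 Hz were below every control library, while 10 Hz overlapped with control. Nr4a2 fell to 0.307 of its control level at 4 Hz (log2 fold change -1.71 ± 0.33, SE, edgeR adjusted p = 0.000271) and to 0.462 at 1 Hz (-1.12 ± 0.33, edgeR adjusted p = 0.0102). The call at 1 Hz was lost without control replicate 6 (-0.76, edgeR adjusted p = 0.055), the library at 32.4 CPM, which also had the highest small RNA level of the controls (179.3 CPM). The call at 4 Hz held without each library, between -1.95 and -1.35. Nr4a2 was higher at 10 than at 4 Hz (1.19 ± 0.33, edgeR adjusted p = 0.0117), with 5 of 6 libraries above all those at 4 Hz.

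Nr4a3 (ENSMUSG00000028341, chr4:48045153-48086447, 8 exons) was at 7.95, 9.93, and 13.4 CPM in control, 14.1, 15.4, and 20.0 CPM at 1 Hz, 15.9, 18.8, and 22.2 CPM at 4 Hz, and 8.24, 10.3, and 14.7 CPM at 10 Hz. No library at 1 or 4 Hz overlapped with control, and no library at 4 Hz overlapped with 10 Hz. Nr4a3 rose 1.56-fold at 1 Hz (log2 fold change 0.64 ± 0.16, SE, edgeR adjusted p = 0.00286) and 1.81-fold at 4 Hz (0.85 ± 0.16, edgeR adjusted p = 0.000141). At 10 Hz it was lower than at 4 Hz by -0.81 ± 0.15 (edgeR adjusted p = 0.000677) and than at 1 Hz by -0.60 ± 0.15 (edgeR adjusted p = 0.00379). These calls held without each library in turn. By limma on log2(TPM + 1), the call at 4 Hz remained and that at 1 Hz was lost.

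**Figure D3:**
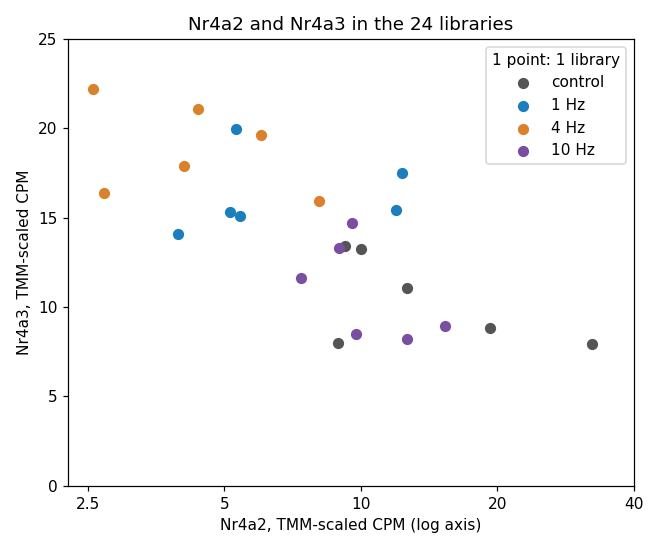
Nr4a2 (log axis) against Nr4a3 in TMM-scaled CPM; 1 point is 1 of the 24 libraries, colored by stimulation frequency. The 4 Hz libraries (Nr4a3 15.9 to 22.2, Nr4a2 2.57 to 8.07) interleave with those at 1 Hz (14.1 to 20.0 and 3.95 to 12.3), and control and 10 Hz libraries lie at Nr4a3 of 14.7 or less and Nr4a2 of 7.37 or more.

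Within a library, the ratio of Nr4a3 to Nr4a2 in TPM was 0.164, 0.529, and 0.78 in control (lowest, median, and highest), 0.654, 1.62, and 2.39 at 1 Hz, 1.15, 2.93, and 5.92 at 4 Hz, and 0.273, 0.654, and 0.891 at 10 Hz. The libraries at 4 Hz were all above every control and every 10 Hz library, and those at 1 Hz overlapped with both. Over the 24 libraries Spearman's rho between the log2 CPM of the 2 genes was -0.70, and within conditions, after each condition's mean was removed, Pearson's r was -0.35. The points share library and depth, and both values are descriptions.

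Comparisons among the frequencies were counted in the same way. Between 10 and 1 Hz, 5 of 10 regulators were called, 1 higher at 10 Hz (Tfam) and 4 lower (Esrrg, Ppard, Nrf1, and Nr4a3), against 17.7% and 18.5% of all genes. Between 10 and 4 Hz, 4 were called, 1 higher (Nr4a2) and 3 lower (Ppargc1a, Esrrg, and Nr4a3), against 10.9% and 11.9% of all genes. Between 4 and 1 Hz only Nr4a1 was called. Of the 60 tests of a member in a comparison, 19 were called, and the same 19 were called in the same direction by DESeq2. Of all genes, 35.4%, 39.4%, and 4.89% were called at 1, 4, and 10 Hz against control. Between 4 and 1, 10 and 1, and 10 and 4 Hz the shares were 12.3%, 36.3%, and 22.8%. The 19 calls are to be read against these shares, and their number alone does not set the regulators apart.

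The small RNA level ran with several members. Over the 24 libraries its Spearman rho was -0.84 with Esrrg, -0.80 with Ppargc1a, -0.80 with Nr4a3, and 0.81 with Nr4a2. Within conditions Pearson's r was -0.65, -0.57, -0.43, and 0.58 for these genes, and it was between -0.46 and 0.33 for the others. Among the 10 Hz libraries, replicate 2 had the highest small RNA level (260.7 CPM), the lowest Esrrg (0.615 CPM), and the highest Nr4a2 (15.4 CPM), and replicate 6 had the lowest small RNA level (39.8 CPM) and the highest Esrrg (4.60 CPM). With the log2 small RNA level as a covariate in the edgeR fit, 0 members were called at 1 and at 4 Hz against control, with 1 and 0 at an unadjusted p below 0.05, and over all genes 1 and 235 were called. The fold change of Esrrg was then 0.41 at 1 Hz (edgeR adjusted p = 0.826) and 0.29 at 4 Hz (0.788), and that of Nr4a3 was 0.23 and 0.46 (0.827 and 0.322). That of Nr4a2 was 0.09 and -0.50 (0.975 and 0.625), and that of Ppargc1a at 4 Hz was -0.11 (0.887). Of the 19 calls, only that of Nr4a1 between 4 and 1 Hz remained (-0.34, edgeR adjusted p = 0.0327). Between these frequencies, whose small RNA ranges overlapped, 12.6% of all genes were called with the covariate and 12.3% without it. Between 10 and 1 Hz and between 10 and 4 Hz, 2.02% and 0% of all genes were called with it. The Nr4a1 call held in only 2 of 12 fits that left out 1 library, so its survival here does not make it the firmest.

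The genes whose level followed Ppargc1a most closely over the 24 libraries, among tested genes with a mean of at least 10 CPM, were Exoc6 (Spearman's rho 0.91, within conditions r = 0.72), Lrrc2 (0.87, 0.66), Ppp1r14c (0.86, 0.48), Tfdp2 (0.84, 0.60), and Ghr (0.84, 0.51). For Nr4a1, the most abundant Nr4a gene, they included Tcn2 (0.79, 0.61), Osgin1 (0.78, 0.71), Pla1a (0.76, 0.63), and Masp1 (0.75, 0.57). Among the members themselves, Esrrg followed Nr4a3 (rho 0.85, within conditions 0.63) and Ppargc1a (0.69, 0.48), and Esrra ran opposite to Nr4a2 (-0.81, -0.65). Ppargc1a and Nr4a3 had a rho of 0.67 that fell to 0.13 within conditions, whereas Nr4a1 and Nr4a3 had -0.29 overall and -0.76 within conditions.

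Genes around these regulators were then counted in 6 lists, with values against control. Among all tested genes, 18.1% were called higher and 17.3% lower at 1 Hz, 19.2% and 20.2% at 4 Hz, and 2.67% and 2.22% at 10 Hz, with a median of -0.01 at each frequency, and each count is to be read against these shares. Of 25 relatives, partners, and regulators of PGC-1, 23 were tested, and 9 were called higher and 4 lower at 1 Hz, 7 and 4 at 4 Hz, and 0 at 10 Hz, where 4 had an unadjusted p below 0.05 by edgeR and DESeq2 also called 0. The median log2 fold change was 0.16, 0.01, and -0.03. The 4 genes called lower of 23 at 1 and at 4 Hz are close to the background of 17.3% and 20.2%. Among those higher were Mef2c, a muscle activator of Ppargc1a (0.82 ± 0.17 at 1 Hz and 0.90 ± 0.17 at 4 Hz, edgeR adjusted p = 0.000664 and 0.000209), and Perm1, a muscle regulator downstream of PGC-1 and ERR (0.66 ± 0.26 and 1.07 ± 0.25, edgeR adjusted p = 0.0479 and 0.00155). Pprc1, the third member of the PGC-1 family, was higher by 0.69 ± 0.10 at 1 Hz (edgeR adjusted p = 2.49e-05), and Gabpb1, a subunit of nuclear respiratory factor 2, by 0.55 ± 0.13 at 4 Hz (edgeR adjusted p = 0.00192). Sirt1, the deacetylase of PGC-1alpha, was lower (-0.51 ± 0.18 and -0.67 ± 0.18, edgeR adjusted p = 0.0303 and 0.00493).

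Of 18 genes of mitochondrial DNA transcription and replication, 0 were called higher and 7 lower at 1 Hz, 1 and 5 at 4 Hz, and 0 at 10 Hz by edgeR and by DESeq2, where 4 had an unadjusted p below 0.05. No call was made for 11, 12, and 18 of them, the medians were -0.10, -0.12, and 0.04, and 17.3% (1 Hz) and 20.2% (4 Hz) of all genes were called lower. Polg2, the accessory subunit of the mitochondrial DNA polymerase, fell by 1.41 at 1 Hz and 0.91 at 4 Hz on the log2 scale (edgeR adjusted p = 1.32e-05 and 0.000458). Dna2, a nuclease and helicase of replication, fell by 1.29 and 0.97 (edgeR adjusted p = 0.000668 and 0.00438), and Mterf2, of the termination factor family, by 0.79 and 0.60 (0.00166 and 0.00992). Tefm, the mitochondrial elongation factor, was the gene called higher, at 4 Hz (0.37 ± 0.10, edgeR adjusted p = 0.00408).

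Of 24 tested target genes of PGC-1, ERR, and PPARdelta, 12 were called higher at 1 Hz, 15 at 4 Hz, and 1 at 10 Hz, and 0 were lower, with medians of 0.24, 0.34, and 0.09. Of all genes, 18.1%, 19.2%, and 2.67% were called higher, so that the count at 10 Hz is near the background. Ucp2, a mitochondrial carrier, rose by 0.93 ± 0.22 at 1 Hz and 1.22 ± 0.21 at 4 Hz (edgeR adjusted p = 0.00156 and 7.7e-05). Vegfa, the angiogenic growth factor that PGC-1alpha raises through ERRalpha, rose by 0.65 ± 0.13 and 0.71 ± 0.13 (edgeR adjusted p = 0.000337 and 0.000101). Pdk4, which restrains entry of pyruvate into mitochondria, rose by 0.61 ± 0.11 at 1 Hz (edgeR adjusted p = 0.000123). Fabp3, the fatty acid carrier of muscle, was the gene called at all 3 frequencies (0.43, 0.88, and 0.44, edgeR adjusted p = 0.00479, 2.35e-06, and 0.0237). These genes moved in the same tissues in which the summed fiber markers were higher, and the part of fiber content in their change was not tested. The same holds for Ckmt2, the mitochondrial creatine kinase of muscle (0.71 ± 0.09 at 4 Hz, edgeR adjusted p = 2.92e-06).

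Of 10 glucose and glycogen genes known to respond to Nr4a1 in muscle, 9 were tested, and 7 were called higher and 1 lower at 1 Hz, 5 and 0 at 4 Hz, and 1 and 0 at 10 Hz, with medians of 0.54, 0.46, and 0, where 18.1%, 19.2%, and 2.67% of all genes were called higher. Pgam2, the muscle phosphoglycerate mutase, rose by 0.86 ± 0.15 and 1.12 ± 0.15 at 1 and 4 Hz (edgeR adjusted p = 0.000164 and 5.01e-06), and Pygm, the muscle glycogen phosphorylase, by 0.73 ± 0.12 and 0.72 ± 0.12 (5.06e-05 and 3.42e-05). Eno3, the muscle enolase, was also called at 10 Hz (0.42 ± 0.11, edgeR adjusted p = 0.0213). Phkg1, a phosphorylase kinase subunit, was the gene called lower (-0.85 ± 0.33 at 1 Hz, edgeR adjusted p = 0.045). The summed fiber markers were higher in these tissues at 1 and 4 Hz, and the part of fiber content in this list was not tested. At 4 Hz Nr4a1 itself was not called by the count test (-0.09). It was called lower on the log2(TPM + 1) scale (-0.30), where the median over all genes was -0.16.

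The 15 other early genes of calcium and CREB signaling were split: 7 were called higher and 5 lower at 1 Hz, 3 and 6 at 4 Hz, and 0 and 5 at 10 Hz, with medians of 0.32, -0.14, and -0.33. Of all genes, 18.1% and 17.3% were called higher and lower at 1 Hz, 19.2% and 20.2% at 4 Hz, and 2.67% and 2.22% at 10 Hz, so that the 3 higher of 15 at 4 Hz are near the background. Arc, a gene induced by calcium signals in neurons, had the largest rise of the list (2.31 ± 0.19 at 1 Hz and 1.64 ± 0.18 at 4 Hz, SE, edgeR adjusted p = 1.57e-08 and 4.42e-07), and Egr3, a zinc finger factor, rose by 0.69 ± 0.13 at 1 Hz (0.000183). Fos, the founding gene of this class, was lower at all 3 frequencies (-1.26, -2.26, and -1.01, edgeR adjusted p = 0.000473, 7.49e-07, and 0.0174). Fosb was higher at 1 Hz (0.83 ± 0.20, edgeR adjusted p = 0.00216) and lower at 4 Hz (-0.83 ± 0.21, 0.00272). Dusp1, a phosphatase of MAP kinases, was also lower at all 3 (-0.33, -1.46, and -0.89, edgeR adjusted p = 0.0403, 2.53e-08, and 0.000311). Egr1, a zinc finger factor of this class, was lower at 4 and 10 Hz (-1.18 and -1.09, edgeR adjusted p = 3.28e-07 and 5.03e-05). It was not called at 1 Hz (-0.22, edgeR adjusted p = 0.176). At 10 Hz, where none of the Nr4a genes was called, 5 early genes were, all lower.

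Of the 13 protein genes of the mitochondrial genome, 0 were called higher and 1 lower at 1 Hz, 7 and 0 at 4 Hz, and 3 and 0 at 10 Hz, with medians of -0.11, 0.50, and 0.54, where 18.1%, 19.2%, and 2.67% of all genes were called higher. The gene called at 1 Hz was mt-Co2, a subunit of cytochrome oxidase (-0.66 ± 0.24, edgeR adjusted p = 0.0308). At 4 Hz mt-Nd1 and mt-Nd2, subunits of complex I, were higher by 0.97 ± 0.21 and 0.94 ± 0.26 (edgeR adjusted p = 0.000844 and 0.00481). At 10 Hz mt-Nd1 and mt-Cytb were higher by 0.73 ± 0.21 and 0.64 ± 0.19 (edgeR adjusted p = 0.046 and 0.0485). Libraries were widely spread and overlapped with control for all 3 genes. In TPM, mt-Nd1 was at 1423 to 2223 in control, 1842 to 5320 at 4 Hz, and 1770 to 4751 at 10 Hz. For mt-Nd2 the range was 801.9 to 1358 in control and 881 to 3218 at 4 Hz. Tfam, which serves their transcription, was not called in any of these comparisons by edgeR with TMM scaling. At 1 Hz it was called lower with total count scaling (-0.28, edgeR adjusted p = 0.029) and on the log2(TPM + 1) scale. Values of mt-Nd6, which lies on the other strand, are uncertain because the sources used here do not give the strand setting of the counting.

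**Figure D4:**
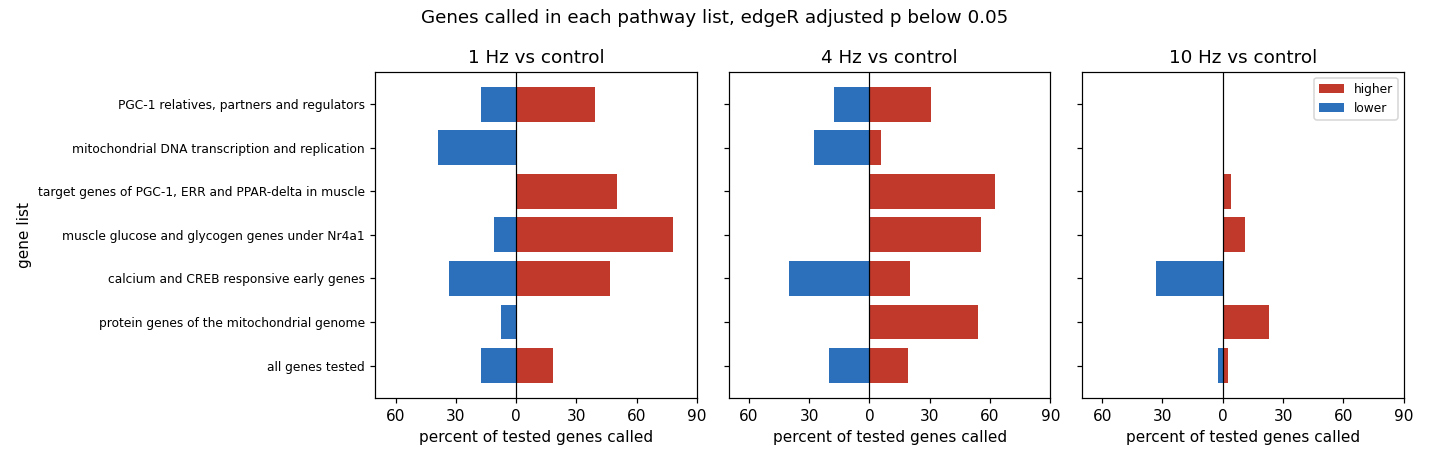
Percent of the tested genes of each pathway list called higher (right of 0) or lower (left of 0) than control at 1, 4, and 10 Hz, with all 13318 tested genes in the lowest row. Target genes of PGC-1 are called only in the higher direction (12, 15, and 1 of 24), and genes of mitochondrial DNA transcription and replication are called lower at 1 Hz (7 of 18).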

How the data were processed

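The 24 libraries came from C2C12 muscle sheets that express ChR2, 6 in each of 4 conditions, and groups and replicate numbers came from the sample titles. Replicates are separate tissues by the study's account of biological replicates; p-values measure the spread between these libraries. The authors selected poly(A) RNA, with ribodepletion for low-input samples that the labels do not name, sequenced 50-base read pairs, and ran nf-core/rnaseq 3.11.1 on GRCm39 with an Ensembl annotation whose release is not given in the sources used here. They deposited salmon expected counts (estimated counts, not normalized) and, in a second table, TPM values scaled by the authors to a common sum.

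Expected counts were rounded. Genes were kept with edgeR's filterByExpr (13318 genes, 99.8% of all counts), scaled by TMM, and tested with glmQLFit and glmQLFTest (edgeR 4.0.16, R 4.3.3) in a single model of the 24 libraries by condition alone (common dispersion 0.0233), with Benjamini-Hochberg adjustment over all genes. The study itself used DESeq2 with a fold threshold. DESeq2 1.42.0 and limma 3.58.1 on log2(TPM + 1) and log2(TPM + 0.1) were alternatives, as were other scalings and filters, only the libraries compared, a replicate block, a small RNA covariate, and leaving out each library. The pseudocount shrinks the change of low genes on the log2(TPM + pseudocount) scale, but TPM also depends on effective length, so these values can be smaller or larger than those from counts. TPM per CPM was tested by limma after adding 0.1 to both, for genes with a mean of at least 0.5 TPM. Library totals of 4.09 to 15.2 M counts limit the precision of genes with few counts, and no 2 libraries of a condition differed by less than counting noise (lowest mean chi-square per gene 3.18 over 60 pairs). On simulated data for 1 Hz against control with 200 genes changed 2-fold, edgeR (13145 genes) recovered 83% with 6.74% of its calls false. The false share was 10.58% for DESeq2 and 7.22% for limma. In the real comparison 35.4% of genes were called, and several members changed less than 2-fold, so these rates need not carry over. Positions, exons, and promoters came from GENCODE M39 on GRCm39, which held 99.8% of the tested identifiers. Named genes were the 10 members, up to 4 called genes with the largest absolute change of each list and comparison with control, and the 5 genes closest to Ppargc1a and to the most abundant Nr4a gene, of which 1 is not reported here. The members, lists, and tests were chosen with earlier results of these data known.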

Additional observations from a re-analysis of the deposited data

Results flagged for a closer look

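Each member was checked in each condition for a library whose gap to the nearest other library, divided by the range of the group, exceeded Dixon's 95% critical value for 6 libraries. This held in 2 of 40 groups, and chance alone gives about 1 in 20. Ppard in control replicate 6 was at 30.3 CPM, below a group median of 45.3 CPM (gap over range 0.669). Nr4a1 in 4 Hz replicate 2 was at 78.3 CPM, above a group median of 57.8 CPM (gap over range 0.787). Neither gene was called against control. The call of Nr4a1 between 4 and 1 Hz held without 4 Hz replicate 2 (log2 fold change -0.42, edgeR adjusted p = 0.00951).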

How the results depend on the processing

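DESeq2 and DESeq2 size factors left all 60 tests of a member on their side of the threshold. Of the 19 calls, 12 held without each library in turn, and 9 of those also held in every alternative that tested them, other than the small RNA covariate. In what follows, brackets give the share of all genes called in the same fit. Without a filter on low counts the number of members called was 0 for 4 against 1 Hz (3.06%) and 3 for 10 against 1 Hz (14%). With a mean of at least 5 CPM, Esrrg was not tested. The number was then 2 at 1 Hz against control (38%) and 3 for 10 against 1 Hz (40%). By limma on log2(TPM + 1) without a filter it was 3 at 4 Hz against control (15.3%) and 3 for 10 against 1 Hz (9.6%). With only the libraries compared it was 0 for 4 against 1 Hz (12.7%). With an added absolute log2 fold change above 0.5 it was 0 for 4 against 1 Hz (3%) and 2 for 10 against 1 Hz (17.9%). With the small RNA covariate it was 0 at 1 Hz (0.00751%) and 0 at 4 Hz (1.76%) against control. It was also 0 for 10 against 1 Hz (2.02%) and 0 for 10 against 4 Hz (0%). In these comparisons, in this order, 1, 0, 1, and 1 members had an unadjusted p below 0.05. Few genes of any kind were called there with this covariate. Of the signs of called members, 2 reversed with it, Nr4a2 at 1 Hz (0.09) and Ppargc1a at 4 Hz (-0.11). The cause was not tested. Leaving out 1 library gave 2 to 6 members at 1 Hz, 4 to 5 at 4 Hz, and 0 to 0 at 10 Hz against control, 0 to 1 for 4 against 1 Hz, 3 to 6 for 10 against 1 Hz, and 3 to 5 for 10 against 4 Hz. Same-numbered libraries of different conditions did not deviate together (correlations -0.16 to 0.24, median 0.01, 36 pairs), so the numbers do not pair them. A replicate block kept all 19 calls and added Esrra between 10 and 4 Hz (-0.32, edgeR adjusted p = 0.0414), which gave 5 members there. In that fit 25.2% of all genes were called between 10 and 4 Hz. Depth limited Esrrg most, with 4 to 111 counts per library.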
